A study of Homo sapiens with 6 samples.

Results

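Wnt proteins are secreted, lipid-modified ligands that bind a Frizzled receptor, a protein with a cysteine-rich outer domain and 7 membrane passes, often together with the co-receptor LRP5 or LRP6. With LRP5 or LRP6 engaged, the β-catenin destruction complex is held at the membrane and β-catenin is free to reach TCF/LEF factors in the nucleus. Other Wnt and Frizzled pairs signal without β-catenin, through planar polarity or calcium. In the lung, Wnt ligands take part in branching and in renewal of the alveolar epithelium. The genes described here are 10 of the 35474 listed in the table of counts, chosen by symbol. They comprise the ligands WNT4, WNT5A, WNT7A and WNT7B, the receptors FZD2, FZD4, FZD5 and FZD6, and the co-receptors LRP5 and LRP6.

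A549, a human lung adenocarcinoma line, was transfected with siRNA against BAP18 (siBAP18) or with a nontargeting siRNA (siCtrl), and RNA was taken 48 h later from 3 cultures per group. All 6 cultures are of the same line and all received an siRNA. Which of 3 BAP18 siRNAs was used in these cultures is not given in the sources used here. Counts per library totalled 42094524 to 56548620. BAP18, listed as C17orf49, was at 5.72 ± 0.470 RPKM (SD, n = 3) in siCtrl cells and 0.915 ± 0.0656 in siBAP18 cells, where RPKM is the count of a gene scaled to its length and to the total of its library. The epithelial keratin KRT8 reached 1948 RPKM in siCtrl and 1514 in siBAP18 cells, and EPCAM, KRT18, KRT19 and CDH1 were detected in every library. At an adjusted p under 0.05, 4 of these 5 epithelial markers were lower in siBAP18 cells, CDH1 by the most, with a log2 fold change of −1.32. KRT19 went the other way and did not pass (log2 fold change 0.15, adjusted p = 0.0894). The 3 genes known to be high in A549, AKR1B10, AKR1C1 and NQO1, were also lower. Among all genes tested, 25.1% were lower. Of 4 markers of other cell types, PTPRC (immune) and DCN (fibroblast) had no row among the genes listed. PECAM1 stood at 0.0922 RPKM in siCtrl and 0.0317 in siBAP18 cells and COL1A1 at 1.22 and 0.936, both lower. The part of these shifts in the results below was not tested.

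The siRNAs themselves bear on how the values of these genes are read, because a guide strand can also lower transcripts that match its bases 2 to 8 in the 3′ UTR. For each of the 3 BAP18 guides the matching word of 7 bases was searched, on the transcript strand, in the longest annotated 3′ UTR of each gene (GENCODE 29). The word of siBAP18#3, ACTCAAC, was found in WNT4 and FZD4, as in 6.61% of the 18794 3′ UTRs searched. The word of siBAP18#2, AAGATTC, was found in LRP6 and FZD6, as in 10.3% of all 3′ UTRs. The word of siBAP18#1, AATCACA, was found in FZD4, as in 13.1%. The siCtrl word, TGTCACG, was in 2.73% of 3′ UTRs and in none of these 10 genes. The windows below lie in WNT4, in LRP6 and in FZD4, which carried words for 2 guides. The window in FZD6 is not shown. Capitals mark the word.
WNT4 with siBAP18#3, chr1:22118990-22119016, minus strand: ccattatcttACTCAACacaatttatt
LRP6 with siBAP18#2, chr12:12117440-12117466, minus strand: cgtatctaacAAGATTCagaaacaaaa
FZD4 with siBAP18#3, chr11:86950055-86950081, minus strand: gacatagtatACTCAACtgactttaaa
FZD4 with siBAP18#1, chr11:86949389-86949415, minus strand: tttttttttcAATCACActttgtggaa
All coordinates are on GRCh38, and all 4 windows lie in 3′ UTRs. In WNT4 and LRP6 an A follows the word, and such a match is labeled an 8mer whatever the first base of the guide. All 3 BAP18 guides start with an A, so this A does not pair with it. In FZD4 a T follows the siBAP18#3 word and can pair with the first base of that guide, and a C follows the siBAP18#1 word. WNT5A, WNT7A, WNT7B, FZD2, FZD5 and LRP5 held none of these words in the 3′ UTRs searched. The lengths searched differed widely, from 184 bases in FZD2 and 205 in LRP5 to 5101 in LRP6 and 5463 in FZD4. A longer 3′ UTR holds more words, and the shares given above are over 3′ UTRs of all lengths from 50 bases. A word is a match of letters, and its part in any change below was not tested.

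On the scale of level per length, LRP5 led the 10 genes in siCtrl cells at 22.2 ± 0.408 RPKM (SD, n = 3), above 90.3% of the 20776 genes tested. FZD6 followed at 14.7 ± 0.0749 RPKM, FZD2 at 11.4 ± 0.285, LRP6 at 7.23 ± 0.291 and WNT7B at 4.84 ± 0.0768. The ranges of these 5 genes over the siCtrl libraries did not overlap. FZD5 (1.22 ± 0.118 RPKM), WNT4 (1.16 ± 0.208) and FZD4 (0.935 ± 0.0646) came next, each overlapping its neighbor in this order. WNT5A, at 0.132 ± 0.00934 RPKM, and WNT7A, at 0.0387 ± 0.00997, were close to the lower limit of what was counted, WNT7A lying above only 1.58% of the genes tested. In siBAP18 cells the order changed at several places. FZD2 (14.4 ± 0.726 RPKM) stood above FZD6 (11.4 ± 1.26), with no overlap between them, LRP6 (4.45 ± 0.781) overlapped WNT7B (4.54 ± 0.303), and WNT4 (0.486 ± 0.0581) stood below FZD4 (0.896 ± 0.145).

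The comparison of siBAP18 with siCtrl cells asks whether loss of BAP18 altered the RNA of the ligands and receptors at the entry of the pathway. Both co-receptors, the receptor FZD6 and the ligands WNT4 and WNT5A were lower in siBAP18 cells, FZD2 and WNT7A were higher, and WNT7B, FZD4 and FZD5 did not pass the test. At an adjusted p under 0.05, 7 of the 10 differed, where 49.6% of all genes tested did. Of these, 5 were lower, beside 25.1% of all genes, and 2 were higher, beside 24.5%. With an absolute log2 fold change over 1 as well, 2 of 10 genes were called, beside 8.46% of all genes. WNT4 was called lower, as were 3.74% of all genes, and WNT7A higher, as were 4.72%. In 7 of the 10 the libraries of the groups did not overlap, as in 56.6% of all genes. Their median log2 fold change was −0.23, and that of all genes was 0.0010. Counts were compared with edgeR's quasi-likelihood test and adjusted over all genes tested, and fold changes come from that fit. All 10 passed the filter on low counts, but WNT7A did so through the siBAP18 libraries, since 1 of its 3 siCtrl libraries reached the cutoff of 0.198 CPM (counts scaled to a fixed library total). WNT7A is among the 7 that differed, the 2 called and the 7 without overlap. Its part in these counts is description only. RNA was taken from whole cultures, so that fewer cells expressing a gene and less RNA per cell cannot be told apart.

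**Figure D1:**
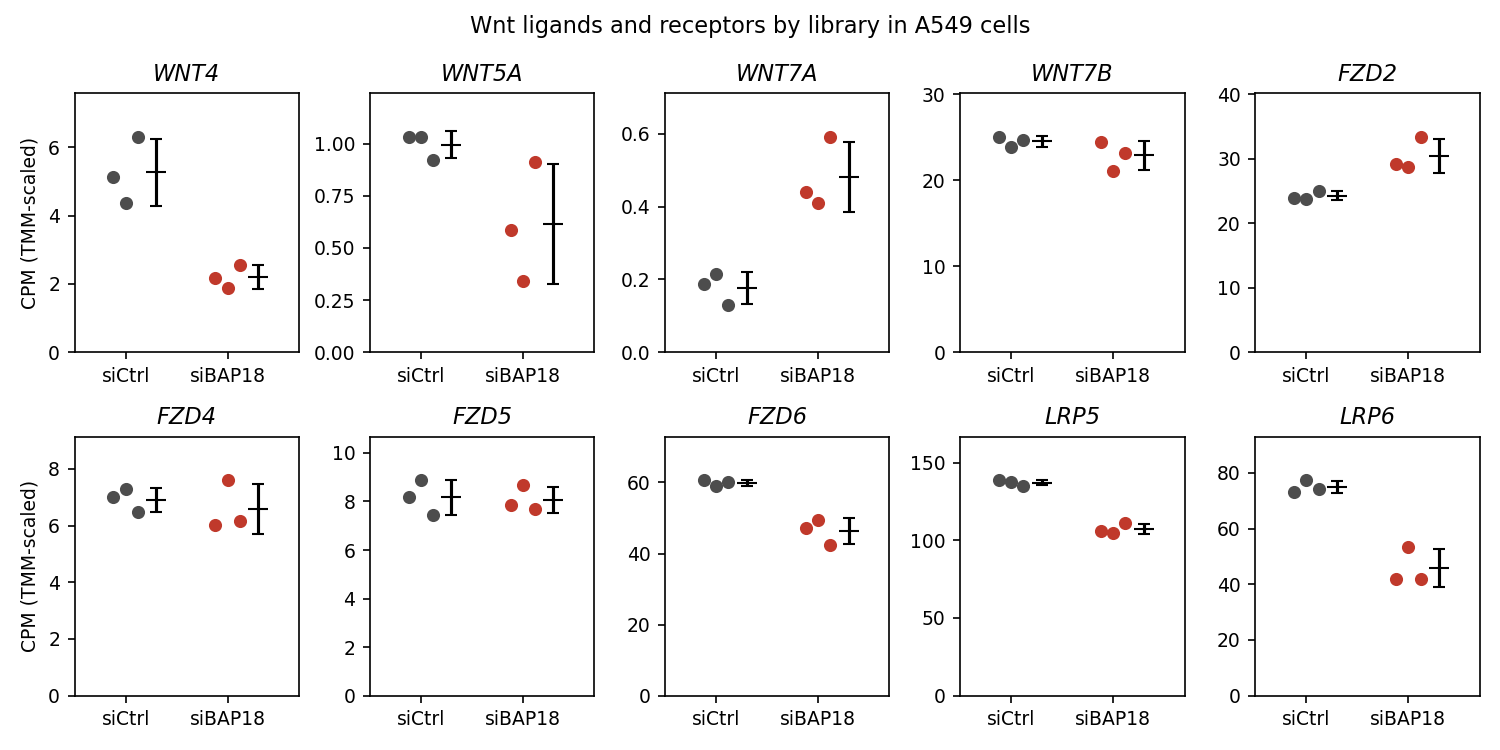
CPM of the 10 genes in each library, siCtrl in gray and siBAP18 in red, with the mean ± SD of 3 libraries beside the points and each vertical axis starting at 0. The groups are apart in 7 genes and overlap in WNT7B, FZD4 and FZD5.

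Of the ligands, WNT4 fell by 1.27 on the log2 scale. WNT4 lies on chromosome 1 from 22117305 to 22143969 on the minus strand, and its product acts in the development of kidney, female reproductive tract and lung. In siCtrl replicates 1, 2 and 3 its CPM values were 5.11, 4.36 and 6.31. In siBAP18 replicates 1, 2 and 3 they were 2.17, 1.88 and 2.57. Every siBAP18 library lay below every siCtrl library. RNA of WNT4 fell by 58.5% (standard error 0.156 on the log2 scale, adjusted p = 2.10e-07), from 203 to 295 counts per library to 104 to 118.

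WNT5A, the prototype of ligands that signal without β-catenin, lies on chromosome 3 from 55465715 to 55490539 on the minus strand. It was held by 55, 48 and 43 counts in the siCtrl libraries and by 32, 20 and 37 in the siBAP18 libraries, or 1.03, 1.03 and 0.920 CPM against 0.588, 0.342 and 0.913. The highest siBAP18 library, replicate 3, was just under the lowest siCtrl library, and the siBAP18 libraries were spread more widely. WNT5A fell by 0.74 on the log2 scale, with a standard error of 0.305 and an adjusted p of 0.0469. It was −0.43 without siBAP18 replicate 2 (adjusted p = 0.245) and −1.10 without siBAP18 replicate 3 (adjusted p = 0.00515), and it did not pass without siBAP18 replicate 1 or any of the siCtrl replicates either (adjusted p from 0.0630 to 0.107).

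WNT7A and WNT7B are close paralogs that both can signal through β-catenin, but they differed greatly in level. WNT7B, on chromosome 22 from 45920362 to 45977129 on the minus strand, is a ligand of the lung epithelium. Its CPM values were 25.1, 23.8 and 24.7 in siCtrl and 24.5, 21.1 and 23.1 in siBAP18 libraries, which overlap. The log2 fold change of −0.10 had an adjusted p of 0.288 and a 95% interval from −0.26 to 0.056. WNT7A, on chromosome 3 from 13816258 to 13880121 on the minus strand, held 10, 10 and 6 counts in the siCtrl libraries and 24 in each siBAP18 library. As CPM these were 0.188, 0.215 and 0.128 against 0.441, 0.411 and 0.592. Its siBAP18 libraries all lay above its siCtrl libraries. The gene rose by 1.41 on the log2 scale, with a 95% interval from 0.55 to 2.27 and an adjusted p of 0.00640. WNT7A passed the filter on low counts through the siBAP18 libraries, where it was higher, so its adjusted p and the ratio below are given as description only. Per length, WNT7A amounted to 0.828%, 0.996% and 0.574% of WNT7B in the siCtrl libraries and to 1.99%, 2.15% and 2.82% in the siBAP18 libraries. The log2 ratio of WNT7A to WNT7B was higher by 1.56 in siBAP18 cells (two-sided exact permutation p = 0.1, the smallest that 3 libraries against 3 allow).

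WNT7A and WNT5A rest on few counts. Among values from 1 to 20 counts, 74.9% to 77.2% were even in each library, beside 53.2% to 56.0% of values over 200. The libraries were sequenced as read pairs, and whether the mates of a pair were counted singly is not given in the sources used here.

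**Figure D2:**
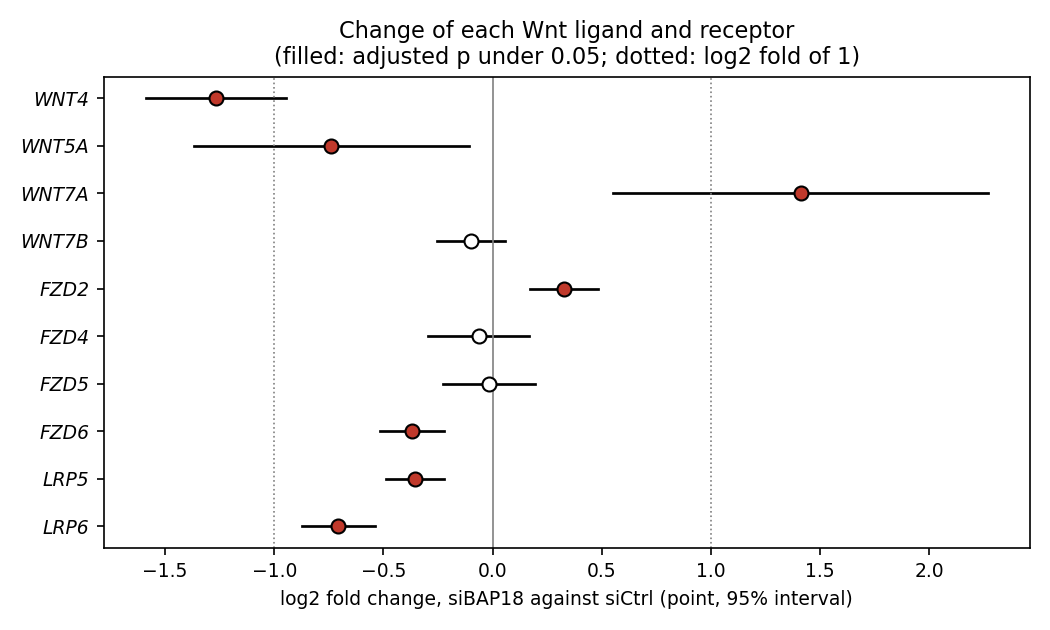
Log2 fold change of each gene in siBAP18 against siCtrl cells (points) with its 95% interval (lines) from the fit across all genes. The intervals of WNT7B, FZD4 and FZD5 span 0, and that of WNT7A, the gene with the fewest counts, is the widest.

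Of the Frizzled receptors, FZD2 and FZD6 had the highest levels and moved in opposite directions. FZD2, on chromosome 17 from 44557459 to 44559570 on the plus strand, is a receptor reported for WNT5A as well as for ligands of β-catenin signaling. Its CPM values were 23.9, 23.7 and 25.0 in siCtrl and 29.2, 28.7 and 33.4 in siBAP18 libraries. The groups did not overlap, and FZD2 rose by 0.33 on the log2 scale (standard error 0.0756, adjusted p = 7.95e-04), or by 25.4%. FZD6, on chromosome 8 from 103298433 to 103332866 on the plus strand, is known from planar polarity of skin and hair and from the formation of nails. Its CPM values were 60.7, 58.9 and 60.2 in siCtrl and 47.0, 49.4 and 42.5 in siBAP18 libraries. FZD6 fell by 0.37 on the log2 scale (standard error 0.0702, adjusted p = 9.50e-05), every siBAP18 library lying below every siCtrl library. The antisense gene BAALC-AS1 shares 138 exonic bases with FZD6, and its own log2 fold change was −0.16, at an adjusted p of 0.707.

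FZD4 and FZD5 showed no difference beyond the spread between libraries. FZD4, the receptor for Norrin in the retinal vasculature, lies on chromosome 11 from 86945679 to 86955391 on the minus strand. Its CPM values were 6.99, 7.29 and 6.46 in siCtrl and 6.01, 7.60 and 6.17 in siBAP18 libraries. The log2 fold change was −0.064 (adjusted p = 0.666, 95% interval from −0.30 to 0.17). Exons of PRSS23 share 1399 bases with those of FZD4 on the opposite strand. The libraries were prepared with strand marking, but whether strand was used in counting is not given in the sources used here, so reads of the pair may be mixed. The log2 fold change of PRSS23 was 0.0082, at an adjusted p of 0.929. FZD5, a receptor that takes part in β-catenin signaling in the gut and the eye, lies on chromosome 2 from 207762586 to 207769563 on the minus strand. It was at 8.20, 8.88 and 7.44 CPM in siCtrl and 7.85, 8.66 and 7.67 in siBAP18 libraries. Its log2 fold change was −0.017 (adjusted p = 0.903, 95% interval from −0.23 to 0.19).

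LRP6 showed the larger fall of the co-receptors. LRP6, on chromosome 12 from 12116025 to 12267012 on the minus strand, is phosphorylated on its inner tail when a Wnt ligand binds and then holds Axin. Its CPM values were 73.2, 77.4 and 74.1 in siCtrl and 42.0, 53.5 and 42.0 in siBAP18 libraries. LRP6 fell by 0.71 on the log2 scale (standard error 0.0812, adjusted p = 7.15e-08), or by 38.7%, and siBAP18 replicate 2 stood above the other siBAP18 libraries but well below siCtrl. LRP5, on chromosome 11 from 68312609 to 68449275 on the plus strand, shares this role and is known from bone mass. Its CPM values were 138.7, 137.6 and 135.1 in siCtrl and 106.1, 104.5 and 111.1 in siBAP18 libraries. LRP5 fell by 0.35 on the log2 scale (standard error 0.0643, adjusted p = 5.28e-05), or by 21.8%, with tight groups that lay apart. Per length, LRP6 amounted to 31.5%, 33.5% and 32.7% of LRP5 in the siCtrl libraries and to 23.6%, 30.5% and 22.5% in the siBAP18 libraries. The log2 ratio of LRP6 to LRP5 differed by −0.36, siBAP18 minus siCtrl (two-sided exact permutation p = 0.1, the smallest possible here).

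The levels per length were also summed by family. LRP5 and LRP6 together amounted to 29.4 ± 0.632 RPKM in siCtrl and 21.9 ± 0.866 in siBAP18 cells (SD, n = 3 each), with no overlap between libraries. All 10 Frizzled genes summed to 34.8 ± 0.150 RPKM in siCtrl and 34.2 ± 1.25 in siBAP18 cells. Within that sum FZD2 took 32.3% to 33.6% in the siCtrl libraries and 39.3% to 45.7% in the siBAP18 libraries, whereas FZD6 took 42.0% to 42.6% and 30.2% to 35.2%. The 17 WNT genes listed in the table summed to 9.05 ± 0.212 RPKM in siCtrl and 9.44 ± 0.646 in siBAP18 cells, and both of these sums overlapped between groups. WNT7B took 52.5% to 54.1% of the ligand sum in siCtrl and 47.8% to 48.3% in siBAP18 libraries, and WNT4 11.1% to 15.0% and 4.75% to 5.92%. WNT9A, a ligand of joint and limb development, took 8.80% to 11.3% and 15.2% to 16.9%. The sums add RNA levels and say nothing of protein.

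**Figure D3:**
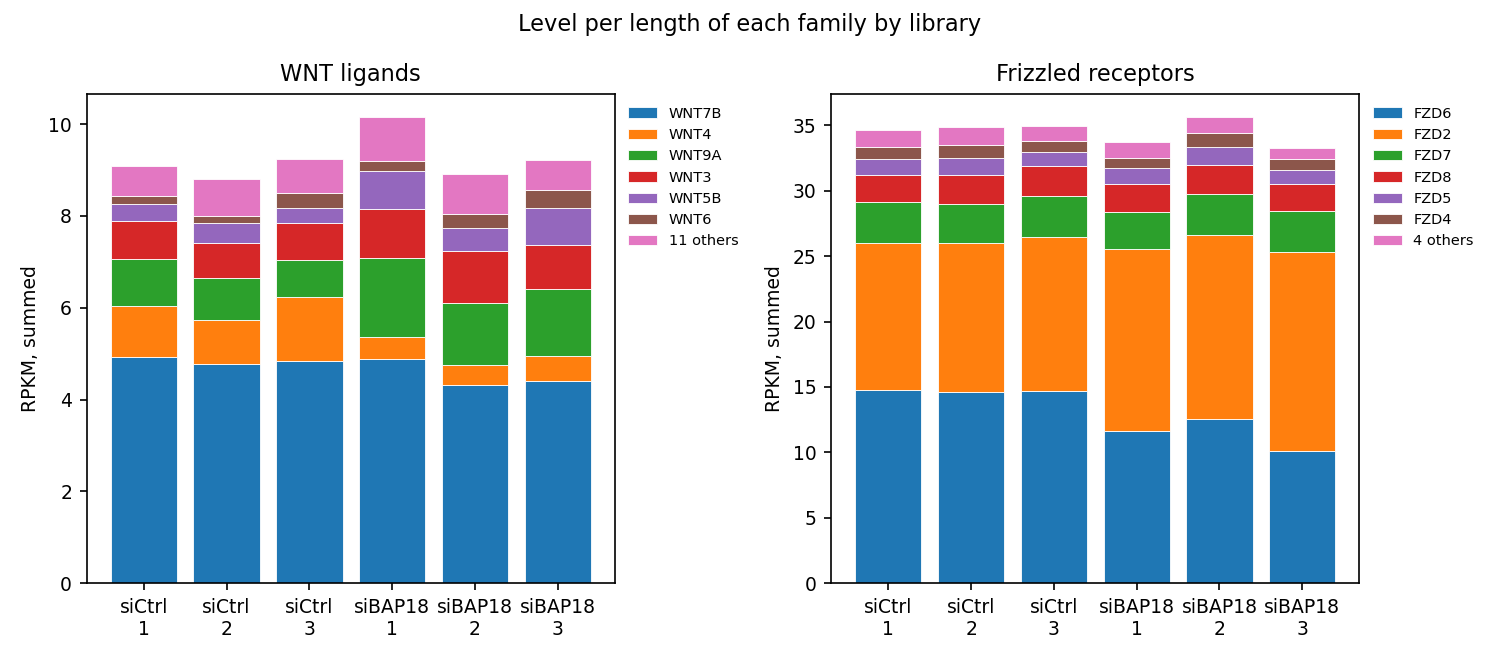
RPKM of WNT ligands (left) and Frizzled receptors (right) stacked by gene for each library, with the 6 genes of highest siCtrl mean shown and the others pooled. The height of the stacks overlaps between groups, while WNT4 and FZD6 take less and WNT9A and FZD2 more of it in siBAP18 libraries.

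Other genes of the pathway, at the membrane and inside the cell, were described with 9 lists, and some genes are shared between lists. Counted once each, 74 of 96 genes with a row passed the filter. Of these 74, 17 (23.0%) were higher and 21 (28.4%) lower at an adjusted p under 0.05, close to the 24.5% higher and 25.1% lower among all genes tested, and their median log2 fold change was 0.014. The counts of the single lists below, of 5 to 18 genes each, stand beside the same shares of all genes. Among the other WNT ligands, 7 of 13 genes with a row were tested and 3 were higher. WNT9A was at 0.915 ± 0.105 RPKM in siCtrl and 1.51 ± 0.185 in siBAP18 cells, a rise of 0.72 on the log2 scale (adjusted p = 5.71e-05). WNT5B, a close paralog of WNT5A, rose by 0.92 (adjusted p = 3.06e-04), from 0.376 ± 0.0480 to 0.714 ± 0.179 RPKM. The other 4 did not pass, and the median of the 7 was 0.48. Of 5 other Frizzled genes tested, FZD3 (log2 fold change −0.47, adjusted p = 0.0148) and FZD1 (−0.35, adjusted p = 0.0303) were lower. FZD3 did not pass without siCtrl replicate 1 (−0.39, adjusted p = 0.0907) or siCtrl replicate 2 (−0.45, adjusted p = 0.0503), and FZD1 did not pass without siCtrl replicate 1 (−0.35), siCtrl replicate 2 (−0.32) or siBAP18 replicate 3 (−0.20). Over all alternatives in processing, left-out libraries included, FZD3 passed in 11 of 15 and FZD1 in 9 of 17.

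Of 6 other co-receptors tested, 2 were lower. PTK7, a pseudokinase receptor of planar polarity, was at 0.840 ± 0.0292 RPKM in siCtrl and 0.355 ± 0.0377 in siBAP18 cells and fell by 1.26 on the log2 scale, with an adjusted p of 4.30e-09. Of 5 genes tested for acylation and secretion of the ligands, 2 were lower, the cargo receptors TMED5 (log2 fold change −0.64, adjusted p = 7.58e-08) and TMED10 (−0.51, adjusted p = 3.12e-07). PORCN, which acylates Wnt proteins, and WLS, which carries them to the surface, had log2 fold changes of 0.11 (adjusted p = 0.606) and 0.10 (adjusted p = 0.293). Both were chosen for their role after values were seen.

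The R-spondin module sets how long Frizzled and LRP6 proteins stay at the surface. Of its 9 genes 5 were tested, of which 1 was higher and 3 lower, with a median log2 fold change of −0.31, and no log2 change was beyond 1. R-spondin ligands bind LGR receptors and disarm ZNRF3 and RNF43, the ubiquitin ligases that remove Frizzled proteins. RSPO3 was at 26.1 ± 0.974 RPKM in siCtrl and 42.6 ± 3.69 in siBAP18 cells (SD, n = 3 each) and rose by 0.70 on the log2 scale (adjusted p = 3.60e-09). LGR4 was at 24.4 ± 1.01 and 12.5 ± 0.998 RPKM and fell by 0.96 (adjusted p = 1.06e-11). Their mean RPKM in siCtrl cells exceeded that of every gene of the 10. RSPO3 and LGR4 are named here for the smallest adjusted p of the module.

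Of 8 secreted and membrane inhibitors tested, 2 were higher and 1 lower. SFRP4, a secreted decoy of Frizzled type, rose by 0.73 on the log2 scale (adjusted p = 0.00157), and KREMEN2, which helps DKK proteins to clear LRP6, fell by 0.81 (adjusted p = 4.02e-04). Among 15 genes of the Dishevelled and receptor scaffold, 4 were higher and 2 lower. DACT1, a Dishevelled binding protein and among the 4 higher, rose by 1.58 (adjusted p = 0.00606). It held 4 to 20 counts per siCtrl library and 12 to 44 per siBAP18 library, which overlap. Of its siCtrl libraries only replicate 1 reached the filter cutoff of 0.198 CPM. DACT1 thus passed the filter through the siBAP18 libraries, where it was higher, and its adjusted p is given as description only. With a library left out, its rise ranged from 1.23 without siCtrl replicate 2 (adjusted p = 0.0494) to 2.47 without siCtrl replicate 1. In the list of planar polarity and noncanonical genes, 5 of 18 were higher and 6 lower. SCRIB, a polarity scaffold, rose by 0.76 (adjusted p = 4.70e-10), and the GTPase gene RAC1 rose by 0.68 (adjusted p = 3.19e-09). Among the 6 lower, the smallest adjusted p were those of CELSR2 (−0.71, adjusted p = 1.34e-08) and CAMK2D (−0.67, adjusted p = 4.79e-08). These 2 were added after values were seen. Of 8 feedback targets of β-catenin tested, 3 were higher and 4 lower. The transcription factor gene TCF7 fell by 0.65 (adjusted p = 5.75e-06), while NKD2, an inhibitor that acts through Dishevelled, rose by 0.87 (adjusted p = 2.60e-04).

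**Figure D4:**
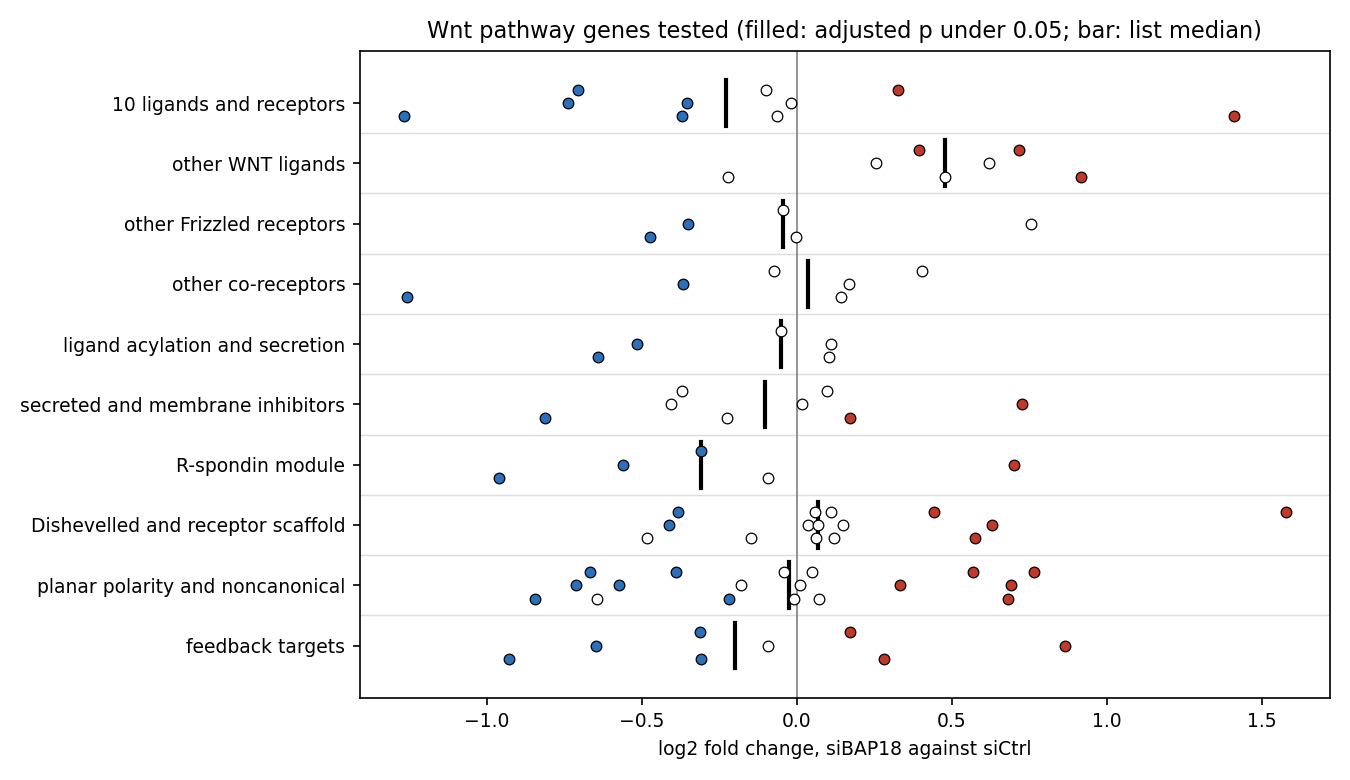
Log2 fold change in siBAP18 against siCtrl cells of every tested gene of the 10 ligands and receptors and of the 9 pathway lists. Filled points passed an adjusted p of 0.05 (red higher, blue lower), open points did not, and bars are list medians, from −0.31 in the R-spondin module to 0.48 in the other WNT ligands.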

How the data were processed

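Poly(A) RNA of 6 A549 cultures was sequenced. The authors deposited whole-number counts per gene and the same values as RPKM (counts scaled to listed gene length and library total). The deposited RPKM equalled values recomputed from the counts to a relative difference of at most 5.3e-15. The aligner, counting program and strand setting are not given in the sources used here. The submitters' processing notes list the builds hg38 and GRCm38, and the spans of all 10 genes equal those of GENCODE 29 on GRCh38. Counts were scaled by TMM after filterByExpr and compared with edgeR 4.0.16 in R 4.3.3 (quasi-likelihood test, Benjamini-Hochberg adjustment over 20776 genes). Standard errors were taken from the F statistic of each gene. Calls required an adjusted p below 0.05 together with a log2 change beyond 1 in either direction. Alternatives used DESeq2 1.42.0 and limma 3.58.1. The edgeR, DESeq2 and limma fits were tested on simulated data, with changed genes of over 1 CPM only. Words were searched with Python 3.11.15 in 3′ UTRs of at least 50 bases. The 10 genes and the pathway lists were chosen with earlier results of these data known. From each list the text names up to 3 called genes by smallest adjusted p, or else up to 2 past the adjusted p alone. P-values of the fit rest on counting error and on the spread between 3 cultures per group. The spread of each gene was drawn toward that of the other genes tested, so these p-values do not measure the 3 cultures alone. Whether mates were counted singly, which bears on the counting error, is not given.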

Additional observations from a re-analysis of the deposited data

How the results depend on the processing

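Of 17 alternatives, 16 were planned, and the halving of counts, which by construction leaves fold changes nearly as they were, was chosen after seeing the data. The call of the adjusted p was the same in every alternative that gave a value for 9 of the 10 genes, FZD4 and FZD5 included, which did not pass in any. WNT7A is among the 9, and its adjusted p remains description only. WNT5A passed in 6 of 15. It did not with upper-quartile scaling (adjusted p = 0.0510), total counts only (0.0531), DESeq2's Wald test (0.150) or limma on log2(RPKM + 1) without a filter (0.175).

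The numbers of genes called higher and lower were 1 (WNT7A, as description only) and 1 (WNT4). With at least 10 counts in every library, and with limma on log2(RPKM + 1) or log2(RPKM + 0.1) at a mean RPKM of at least 0.5, 0 were called higher and 1 was higher at the adjusted p alone, since WNT7A was removed by these filters. Limma on log2(RPKM + 1) called 0 higher and 0 lower without a filter, and 0 lower with it, since that pseudocount shrinks low genes (WNT4 to −0.54). With each library left out, 1 to 2 were called lower, 2 without siBAP18 replicate 3, where WNT5A was added. The 1 called higher throughout was WNT7A, again as description only. The log2 fold change of FZD4 ranged from −0.18 to 0.0026 with a library left out, above 0 without siBAP18 replicate 1. That of FZD5 ranged from −0.082 to 0.041 and was above 0 without siCtrl replicate 2 (0.041), siBAP18 replicate 1 (0.0041) or siBAP18 replicate 3 (0.018). Libraries of the same replicate number were not taken as pairs (residual r of 0.0429, 0.16 and 0.0709). A replicate block left 1 gene called higher and 1 lower, with 5 lower and 2 higher at the adjusted p alone. In the pathway lists, 15 to 20 genes were higher and 16 to 21 lower under the alternatives in which they were counted. They were not counted with limma or with at least 10 counts in every library.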
